A study of Mus musculus with 2 samples.

Results

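The genes described here run mitosis: the cyclins, kinases and checkpoint proteins that time it, the centromere and kinetochore proteins that hold chromosomes to the spindle, and the kinesin motors that work on microtubules. They were chosen by name, as genes whose array name is Cenp followed by a letter, Kif followed by a digit, or 1 of 22 listed mitotic regulators from Aurka to Mki67. This gave 78 of the 34786 genes and transcripts on the array, read by 120 probes, with the probe of the highest mean log2 intensity standing for each gene. By role, 53 act in mitosis or at the centromere or centriole (the mitotic members) and 25 are kinesins known mainly for transport, cilia or other work, or without a settled role (the other kinesins).

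RNA came from LSK cells sorted from bone marrow (no lineage markers, Sca-1 and c-Kit present), which include haematopoietic stem cells and early progenitors, of secondary recipient mice carrying a transplanted myelodysplastic syndrome (MDS). The DAC group had received decitabine, a cytosine analogue that traps DNA methyltransferases, and the PBS group phosphate-buffered saline; their sorted cells are called DAC cells and PBS cells. In both, the genotype was Tet2KD/KD; Ezh2delta/delta on a C57BL/6 strain, and cells were taken 10 weeks after transplantation and 7 weeks after treatment. The product of Tet2 oxidises methylcytosine in DNA, and that of Ezh2 is a histone methyltransferase of the Polycomb group. PBS cells carried the same alleles as DAC cells. The sources used here do not give the age of the mice, how many stood behind each RNA, the dose, or whether host cells remained in the sort. Each group had 1 array. There is therefore no replicate, no test and no p-value, and every difference below compares these 2 arrays.

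Cells enter mitosis when cyclin-dependent kinase 1, bound to cyclin A or B, is switched on by Cdc25 phosphatases, while Aurora and Polo-like kinases build the spindle. The kinetochore, assembled on centromeric chromatin that carries the histone variant CENP-A, captures microtubules, and the spindle checkpoint holds back the anaphase-promoting complex and its activator Cdc20 until all chromosomes are attached. In bone marrow most long-term stem cells are quiescent and mitotic transcripts come mainly from cycling progenitors, so in a bulk sort fewer cycling cells and less RNA per cycling cell cannot be told apart. Many of these genes share a promoter arrangement: a CHR (cell cycle genes homology region), which binds the MuvB complex together with repressors in resting cells or with B-Myb and FoxM1 in cycling ones, and CCAAT boxes, which bind NF-Y.

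That arrangement was read from the sequences, which do not depend on the arrays. RefSeq promoter windows (build GRCm38.p6, from 250 bases before to 50 after the start, 300 in all) were found for 66 of the 78 genes. A gene with several annotated starts had each of its windows searched. The windows were searched for the CHR letters TTTGAA and TTCGAA and for CCAAT, on both strands (so TTCAAA and ATTGG count, and TTCGAA is its own complement). None of these letter sets lies inside another. Windows are shown for Plk1 and Kif18b, which were higher on the DAC array, for Ttk, which was lower, for Mki67 and Cdc20, which lay within 2-fold, and for Kif3a, a transport kinesin gene with no CHR letters in its window. Capitals mark every match.

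Plk1 promoter, chr7:122159185-122159484, plus strand: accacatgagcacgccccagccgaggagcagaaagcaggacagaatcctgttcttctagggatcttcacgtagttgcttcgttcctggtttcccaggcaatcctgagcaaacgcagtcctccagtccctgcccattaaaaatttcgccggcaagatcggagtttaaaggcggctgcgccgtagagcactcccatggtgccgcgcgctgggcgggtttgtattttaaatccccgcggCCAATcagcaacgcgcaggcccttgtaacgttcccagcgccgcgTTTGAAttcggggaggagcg
Kif18b promoter, chr11:102925075-102925374, minus strand: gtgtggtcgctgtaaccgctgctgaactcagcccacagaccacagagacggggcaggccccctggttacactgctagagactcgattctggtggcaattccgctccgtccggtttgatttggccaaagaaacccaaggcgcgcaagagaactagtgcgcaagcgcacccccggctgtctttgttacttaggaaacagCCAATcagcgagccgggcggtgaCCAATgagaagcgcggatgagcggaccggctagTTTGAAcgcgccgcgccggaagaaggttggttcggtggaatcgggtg
Ttk promoter, chr9:83834439-83834738, plus strand: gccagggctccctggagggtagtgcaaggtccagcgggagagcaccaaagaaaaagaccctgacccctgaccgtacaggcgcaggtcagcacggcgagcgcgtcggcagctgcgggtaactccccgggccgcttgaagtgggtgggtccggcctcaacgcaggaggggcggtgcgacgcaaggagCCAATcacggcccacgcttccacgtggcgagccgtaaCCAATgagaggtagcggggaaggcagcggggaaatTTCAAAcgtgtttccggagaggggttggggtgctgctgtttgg
Mki67 promoter, chr7:135716330-135716629, minus strand: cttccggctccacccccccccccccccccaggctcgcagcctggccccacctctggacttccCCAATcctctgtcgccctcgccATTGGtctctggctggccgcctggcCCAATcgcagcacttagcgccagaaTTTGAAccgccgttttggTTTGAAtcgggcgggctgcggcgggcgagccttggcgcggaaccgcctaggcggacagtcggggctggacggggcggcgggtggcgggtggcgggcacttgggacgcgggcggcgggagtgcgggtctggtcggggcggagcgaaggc
Cdc20 promoter, chr4:118437294-118437593, minus strand: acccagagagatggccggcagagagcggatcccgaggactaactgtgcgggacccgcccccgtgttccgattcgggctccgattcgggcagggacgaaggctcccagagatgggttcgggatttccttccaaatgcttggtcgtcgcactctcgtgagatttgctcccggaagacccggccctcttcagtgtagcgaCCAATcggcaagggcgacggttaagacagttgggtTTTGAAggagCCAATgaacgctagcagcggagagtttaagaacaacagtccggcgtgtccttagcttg
Kif3a promoter, chr11:53567119-53567418, plus strand: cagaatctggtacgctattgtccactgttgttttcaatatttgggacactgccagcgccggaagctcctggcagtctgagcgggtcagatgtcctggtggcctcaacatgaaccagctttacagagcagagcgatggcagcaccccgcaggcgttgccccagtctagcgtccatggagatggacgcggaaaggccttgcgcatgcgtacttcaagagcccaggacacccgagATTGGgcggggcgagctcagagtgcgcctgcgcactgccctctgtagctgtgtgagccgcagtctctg

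In the Ttk window CCAAT began 65 and 28 bases before the start and TTCAAA at base 8 after it. Kif18b had the same order, with CCAAT 53 and 30 bases before the start and TTTGAA at base 4. Plk1 had CCAAT 14 bases before the start and TTTGAA at base 31. In Cdc20 TTTGAA lay 18 bases before the start, between CCAAT letters 53 and 8 bases before it. Mki67 had 3 CCAAT matches and, further upstream than in the others, TTTGAA 116 and 98 bases before the start. Kif3a had ATTGG 18 bases before the start. Ttk, with the lowest difference of the members, and Kif18b, with the highest of the mitotic ones, thus carried a pair of CCAAT letters followed by CHR letters, those of the CHR on opposite strands. These are single examples. CCAAT was present in 6 of 6 mitotic members at least 2-fold higher, 2 of 5 at least 2-fold lower and 21 of 34 within 2-fold. CHR letters were present in 4 of 6, 4 of 5 and 19 of 34, and both in 4, 2 and 17.

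Of the 47 mitotic members with a window, 28 (59.6%) held CHR letters, against 17.1% of 9417 genes outside the members that were measured on both arrays and had a window, and 21.7% of all 27025 genes with one. CCAAT was present in 31 (66.0%), against 42.9% of those measured genes and 41.1% of all. Both were present in 24 (51.1%), against 7.20% and 8.61%. CHR letters within 50 bases of the start were found in 23 (48.9%), against 4.36% and 6.12%. Among the 19 other kinesins with a window 3 held CHR letters (15.8%), 7 held CCAAT (36.8%) and 2 held both (10.5%). The median GC content of the windows was 59.0% for mitotic members, 62.0% for other kinesins 60.0% for the measured genes outside the members and 52.7% for all genes. Mitosis genes outside the members, from a list of 103 on the array, held CHR letters in 48 of 84 windows (57.1%), and DNA replication genes in 9 of 37 (24.3%). A match is a description of the letters and not a binding site.

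**Figure D1:**
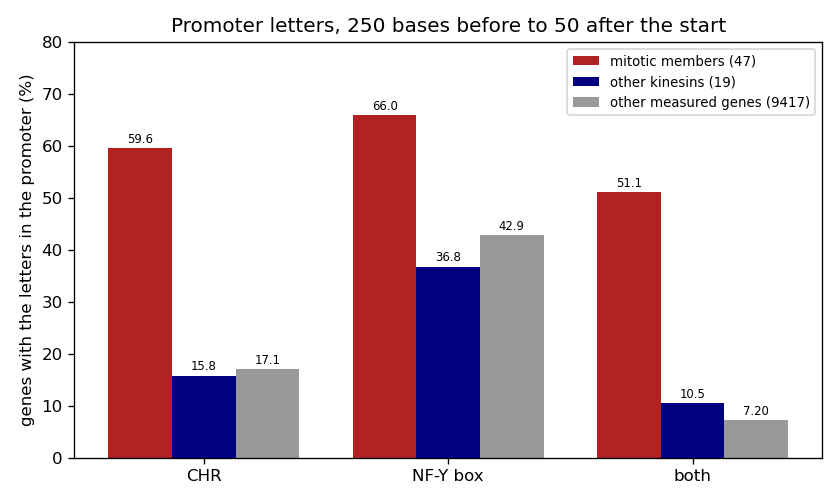
Share of genes (%) whose promoter window holds CHR letters, the CCAAT letters of the NF-Y box, or both. Bars stand for mitotic members, other kinesins and measured genes outside the members, with the number of genes that had a window in the key. Both letters were present in 51.1% of mitotic members, 10.5% of other kinesins and 7.20% of measured genes outside them.

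Expression was read as the processed intensity of each probe. The DAC array was brighter by a factor of 1.32 (0.40 on the log2 scale) at the 75th percentile of probes seen on both arrays, and this factor was removed before differences were taken, so that equal intensities give a difference of −0.40. A scaled log2 signal of 0 is that percentile, and all differences are DAC minus PBS on this log2 scale. Of the 55680 probes kept, 56.8% passed the well-above-background call for DAC and 48.5% for PBS, with 0 saturated spots on either array. Repeated spots of a probe printed 10 times gave an SD of a difference of 0.32 for dim, 0.15 for middling and 0.09 for bright probes, when measured genes were ranked by signal in 3 equal bins. This error covers printing, hybridisation and scanning, and not mice, sorting or amplification. The sort genes Kit and Ly6a, which encode c-Kit and Sca-1, had intensities of 5080 and 1295 (DAC) and of 3550 and 939 (PBS). Their differences were 0.12 and 0.07, and both turned negative under some scalings (to −0.19 and −0.24 at the lowest).

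Of the 78 members, 64 were well above background on both arrays and count as measured. Another 5 (Cenpc1, Kif16b, Kif3c, Kif5a and Kif7) were seen on the DAC array only, 1 (Kif5c) on the PBS array only, and 8 on neither (Cenpf, Kif13b, Kif1a, Kif26a, Kif26b, Kif27, Kif2b and Kif4b). Of all 34786 genes, 3236 were seen on the DAC array only, 966 on the PBS array only and 12176 on neither. The RefSeq table gives the Kif4b probe to the pseudogene Kif4-ps. Mitotic members made up 51 of the 64. Seen on 1 array with a bound of at least 2-fold were Kif7 on the DAC side and Kif5c on the PBS side, beside 3.53% of all genes on the DAC side and 1.51% on the PBS side.

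Measured members were at least 2-fold higher on the DAC array in 8 cases and at least 2-fold lower in 5, with 51 between. That is 12.5% and 7.81% of the members, beside 10.0% and 6.84% of all 18211 measured genes, so the members stood near the background in both directions. Their median difference was 0.05, beside 0.02 for all measured genes. The split depended on the processing: 3 members were higher and 3 lower with normexp background correction, and 5 higher and 10 lower when the percentile was taken over all probes, where the median of all genes lay at −0.18. On that scale 33.3% of the members past 2-fold were on the higher side (41.8% of all genes past it), beside 61.5% (59.4%) as reported. For the 51 mitotic members 6 were past 2-fold on the higher side and 5 on the lower, and the median was −0.01. 25 of them lay above 0 and 26 below. Mitotic genes as a group thus showed no common direction, and the members past 2-fold went both ways. The mitotic members past it on the higher side were Kif18b, Cenpl, Cenpe, Cenpq, Kif4 and Plk1, and on the lower side Ttk, Ndc80, Cenpm, Kif20b and Cenpp. None of the 18 mitotic members in the brightest bin was past 2-fold, where 161 of 6071 genes were higher and 191 lower. Mitotic members in that bin had a median of −0.21, beside −0.13 for all genes there. The 24 in the middling bin had one of −0.19, beside 0.12 for all genes there. The 9 in the dim bin had one of 0.20, beside 0.12. The median over all mitotic members thus joins bins that lay on different sides of the genes of like signal.

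Markers of other cells were read beside these counts, and most lists held genes of both directions. The sums below are of intensities before scaling, so the factor of 1.32 by which the DAC array was brighter is still in them. They also include probes not above background. The differences given beside the sums are scaled. Erythroid markers had a summed intensity of 1065 in DAC cells and 1637 in PBS cells, with 3 of 6 measured, from −2.02 (Gata1) to −0.39 (Hba-a1). Epor went the other way, with 75.6 in DAC cells and 12.1, not above background, in PBS cells (higher by 2.83-fold at least), and Alas2 was above background in PBS cells alone. B cell markers summed to 4919 in DAC cells and 2242 in PBS cells, with 4 of 5 measured, from 0.30 (Cd79b) to 1.28 (Pax5), and Ms4a1 was above background on neither array. Macrophage markers summed to 5483 in DAC cells and 3853 in PBS cells, with 4 of 6 measured, from −0.62 (Lyz2) to 0.87 (Cd68). Adgre1 (higher by 4.97-fold at least) and C1qa were above background in DAC cells alone. Neutrophil markers summed to 5308 in DAC cells and 5239 in PBS cells, with 7 of 7 measured, from −1.59 (Ngp) and −1.25 (Lcn2) to 1.47 (Ltf). T and NK cell markers summed to 1157 in DAC cells and 755 in PBS cells, with 3 of 6 measured, from 0.10 (Cd3e) to 0.47 (Cd4). Against that sum, Cd3d (lower by 4.51-fold at least) and Ncr1 were above background in PBS cells alone, and Cd8a on neither array. Endothelial markers summed to 1452 in DAC cells and 762 in PBS cells, with 3 of 5 measured: Pecam1 at 2.95, Emcn at 1.56 and Kdr at 0.16. Fabp4 was above background in PBS cells alone (lower by 5.70-fold at least), and Cdh5 on neither array. The part of these cells in the differences of the members was not tested.

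**Figure D2:**
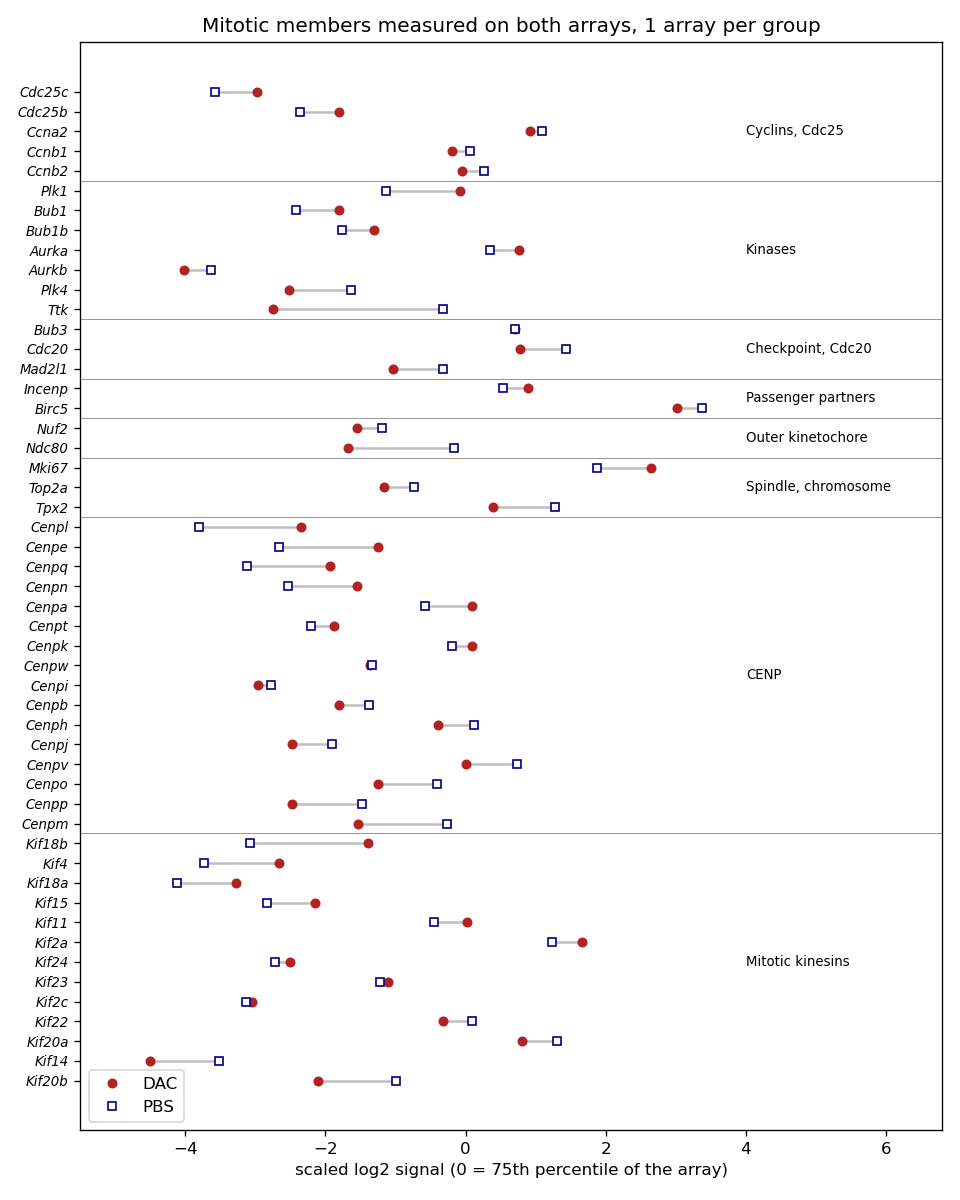
Scaled log2 signal of the 51 measured mitotic members (x axis, 0 is the 75th percentile of the array) on the DAC array (filled circles) and the PBS array (open squares), by role, with a line joining the 2 values of a gene. The longest line is that of Ttk (−2.75 in DAC cells, −0.32 in PBS cells), and lines run in both directions within most roles.

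The cyclins and Cdc25 phosphatases, which trigger mitotic entry, all lay within 2-fold. Ccna2, the cyclin of S phase and early mitosis, had an intensity of 1540 in DAC cells and 1319 in PBS cells, a difference of −0.17. Ccnb1, the main mitotic cyclin, had 710 in DAC cells and 642 in PBS cells, a difference of −0.25, and its remaining probes gave −0.55 and −0.16. Ccnb2 had 783 in DAC cells and 744 in PBS cells, a difference of −0.32. The 3 cyclins were thus slightly lower after scaling, on every probe, and kept that sign under all 12 alternatives. Genes of the brightest bin, where these cyclins fall by the probe that stands for each, had a median of −0.13. Cdc25b and Cdc25c, phosphatases that activate the cyclin-bound kinase, lay on the other side, with 232 and 104 on the DAC array against 121 and 51.8 on the PBS array and differences of 0.55 and 0.61.

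Mitotic kinases held both the lowest difference of the members and 1 of those past 2-fold on the higher side. Ttk encodes Mps1, the kinase that starts spindle checkpoint signalling at unattached kinetochores. Its intensity was 121 in DAC cells and 495 in PBS cells, a difference of −2.43, or 5.40-fold lower on the DAC array. It stayed past 2-fold under every alternative, between −2.74 and −1.87, and rested on 1 probe. Plk1, the Polo-like kinase of centrosome maturation and mitotic entry, had 769 in DAC cells and 281 in PBS cells, a difference of 1.05 (2.08-fold higher), which ranged from 0.75 to 1.05. Its relative Plk4, which governs centriole duplication, had 142 in DAC cells and 198 in PBS cells, a difference of −0.88.

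Bub1 and Bub1b, checkpoint kinases of the outer kinetochore, had 232 and 328 on the DAC array against 116 and 182 on the PBS array, with differences of 0.61 and 0.45. Both had the opposite sign to Ttk, which works in the same checkpoint. Aurka, the spindle pole Aurora kinase, had 1374 in DAC cells and 787 in PBS cells, a difference of 0.41. Aurkb, the Aurora kinase of the chromosomal passenger complex, had 50.2 in DAC cells and 49.8 in PBS cells, a difference of −0.39 at a low signal. The 7 kinases had a median of 0.41, with 4 above 0 and 3 below.

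The remaining checkpoint members lay within 2-fold. Mad2l1 encodes Mad2, the protein that binds Cdc20 to block the anaphase-promoting complex. It had 399 in DAC cells and 495 in PBS cells, a difference of −0.71, and was also lower on its other probes (−0.17 and −0.23). Cdc20 had 1387 in DAC cells and 1678 in PBS cells, a difference of −0.67, and Bub3, an adaptor for Bub1 and BubR1, 1333 and 1005, a difference of 0.01 that changed sign between alternatives. Mad1l1, the kinetochore anchor of Mad2 and not a member, was above background on the PBS array alone, with DAC at least 3.10-fold lower.

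In the passenger complex, which corrects faulty attachments and guides cytokinesis, Birc5 (survivin) had 6616 in DAC cells and 6451 in PBS cells, a difference of −0.36. Its 2 other probes gave −0.42 and −1.07. Incenp, the scaffold that activates Aurora B, had 1512 in DAC cells and 899 in PBS cells, a difference of 0.35. Its other probe, which overlaps the first on the genome, gave 0.36. With Aurkb at −0.39 and Cdca8 (borealin, not a member) at −0.56, Incenp was the only 1 of the 4 subunits above 0.

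The Ndc80 complex is the microtubule grip of the outer kinetochore, a rod of Ndc80 and Nuf2 joined to Spc24 and Spc25. Ndc80 had 253 in DAC cells and 548 in PBS cells, a difference of −1.51 (2.85-fold lower on the DAC array), and remained past 2-fold under every alternative, between −1.82 and −1.29. Nuf2 had 277 in DAC cells and 271 in PBS cells, a difference of −0.37. A dimmer Nuf2 probe went the other way. It was well above background on the DAC array alone, with 53.0 there and 22.1 on the PBS array. Outside the members, Spc24 had a difference of −1.07 and Spc25 one of −0.22. On the probe that stands for each gene, all 4 subunits thus lay below 0, and they did so under each alternative. Of all measured genes 51.4% lay above 0. Ndc80 and Spc24 were past 2-fold.

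Tpx2, Top2a and Mki67 act on the spindle and on mitotic chromosomes. Mki67 encodes Ki-67, the proliferation antigen that coats mitotic chromosomes. It had 5062 in DAC cells and 2279 in PBS cells, a difference of 0.75, and 0.58 on its other probe. Tpx2, the spindle activator of Aurora A, had 1065 in DAC cells and 1489 in PBS cells, a difference of −0.88. Top2a, the topoisomerase that untangles sister chromatids, had 361 in DAC cells and 369 in PBS cells, a difference of −0.43. Mki67 was higher and the other pair lower, although all are used as proliferation markers.

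**Figure D3:**
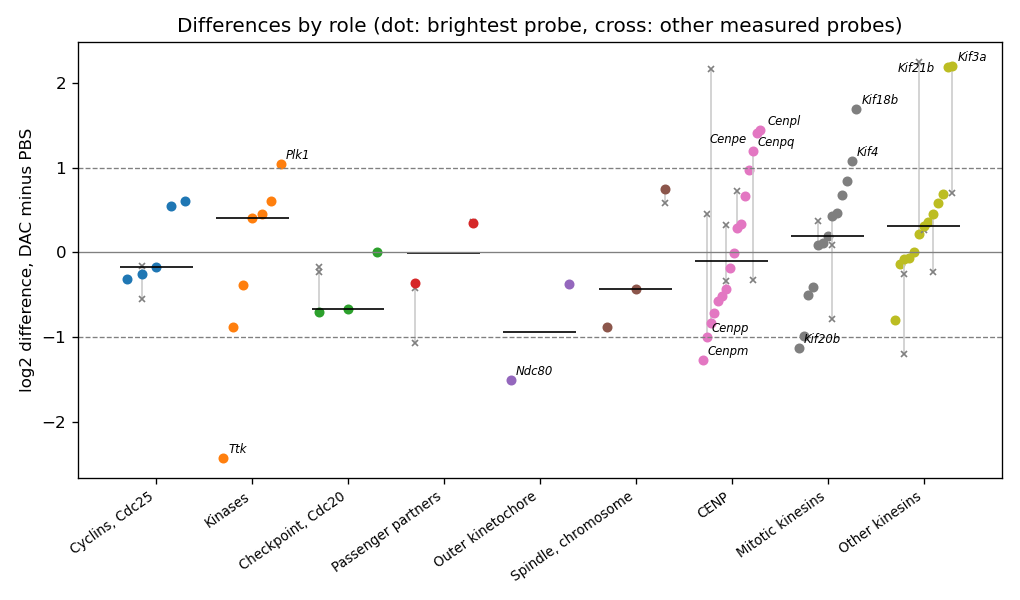
Log2 difference, DAC minus PBS, of the 64 measured members by role. Dots are the brightest probe of a gene, crosses its other measured probes, black bars the median of a role, and dashed lines mark 2-fold; members past 2-fold are named. Ttk (−2.43) is the lowest and Kif3a (2.20) the highest dot, and the probes of Cenpo lie on opposite sides of 0.

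The centromere proteins numbered 18, of which 16 were measured. Past 2-fold were 3 on the higher (18.8%) and 2 on the lower side (12.5%), beside 10.0% and 6.84% of all measured genes. The median was −0.10. Cenpa, the histone variant that marks the centromere, had 865 in DAC cells and 414 in PBS cells, a difference of 0.67. Cenpe encodes a kinesin that carries chromosomes to the spindle equator. It had 343 in DAC cells and 98.0 in PBS cells, a difference of 1.41 (2.66-fold higher). Cenpb, which binds a satellite DNA motif, and Cenpj, a centriole elongation factor, had differences of −0.43 and −0.57, and Cenpv one of −0.72. Cenpc1, the inner kinetochore scaffold CENP-C, had 46.9 on the DAC array and was below the call on the PBS array at 12.5, at least 1.76-fold higher.

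The constitutive centromere network consists of subcomplexes, and their subunits were set side by side, a grouping chosen after the values had been seen. In the CENP-L and CENP-N pair, which reads the CENP-A nucleosome, both genes were higher. Cenpl had 159 in DAC cells and 44.4 in PBS cells, a difference of 1.45 (2.73-fold higher), and its other probe was seen on the DAC array only. Cenpn had 277 in DAC cells and 107 in PBS cells, a difference of 0.98. In the CENP-H, I, K and M subcomplex, Cenpm had 282 in DAC cells and 516 in PBS cells, a difference of −1.27 (2.41-fold lower on the DAC array) that stayed past 2-fold under every alternative. Its partners Cenph, Cenpi and Cenpk had differences of −0.52, −0.19 and 0.29, the last of which changed sign between alternatives.

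In the CENP-O, P, Q, U and R subcomplex the genes went apart: Cenpo at −0.84, Cenpp 2.01-fold lower, Cenpq at 1.20, and outside the members Cenpu at −0.53 and Itgb3bp, which encodes CENP-R, at 1.21. The histone-fold subunits Cenpt and Cenpw had differences of 0.34 and −0.01, and their partners Cenps and Cenpx, named Apitd1 and Stra13 on the array, of −0.50 and −0.63.

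For Cenpo and Cenpq the direction depended on the probe. The probe that stands for each gene was printed 10 times with little scatter, and the second probe of each had 1 spot. The first Cenpo probe had 343 in DAC cells and 466 in PBS cells, with an SD over spots of 0.10 and 0.08. A second Cenpo probe had 185 in DAC cells and 31.3 in PBS cells, a difference of 2.17. The first Cenpq probe had 214 in DAC cells and 70.8 in PBS cells (SD over spots 0.12 and 0.11), while the second had 72.1 in DAC cells and 68.7 in PBS cells, a difference of −0.33. Cenpp was lower on its brightest probe and at 0.45 on the other. These probes are shown with those of Cenpl, whose probes went the same way, as they are the oligonucleotides that the readings come from (build mm9, 60 bases each, the first of each gene being the brighter).

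Cenpo probe 1, chr12:4213508-4213567, minus strand: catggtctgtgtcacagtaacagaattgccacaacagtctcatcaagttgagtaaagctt
Cenpo probe 2, chr12:4216553-4216612, minus strand: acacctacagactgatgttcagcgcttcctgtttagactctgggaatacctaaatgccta
Cenpq probe 1, chr17:41060471-41060530, minus strand: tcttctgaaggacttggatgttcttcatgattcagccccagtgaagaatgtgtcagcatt
Cenpq probe 2, chr17:41068600-41068659, minus strand: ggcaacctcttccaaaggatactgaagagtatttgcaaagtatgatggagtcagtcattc
Cenpl probe 1, chr1:163016113-163016172, plus strand: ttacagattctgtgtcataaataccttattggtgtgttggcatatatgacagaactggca
Cenpl probe 2, chr1:163013521-163013580, plus strand: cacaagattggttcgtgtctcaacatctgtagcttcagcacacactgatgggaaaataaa

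Both Cenpo probes carry the accession NM_134046 and both Cenpq probes NM_031863, so the files assign each pair to the same transcript. Of 17 measured members with at least 2 measured probes, 11 had the same sign on all of them and 6 did not (Cenpb, Cenpo, Cenpp, Cenpq, Kif2a and Kif5b). The other 47 rested on 1 measured probe. Exon and untranslated-region annotation for these probes was not used here.

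The 13 kinesins filed here as mitotic were all measured. Kif2b, a microtubule-depolymerising kinesin that also works at kinetochores, was filed with the other kinesins and was above background on neither array. Past 2-fold among the 13 were 2 on the higher side (15.4%) and 1 on the lower (7.69%), beside 10.0% and 6.84% of all measured genes. The median was 0.20. Kif18b, a plus-end motor that trims astral microtubules, had 311 in DAC cells and 73.0 in PBS cells, a difference of 1.70 (3.24-fold higher) that stayed past 2-fold under every alternative that measured it. Kif18a, its relative that damps chromosome movements, had 84.4 in DAC cells and 35.6 in PBS cells, a difference of 0.85. Kif4, the chromokinesin of the central spindle, had 129 in DAC cells and 46.2 in PBS cells, a difference of 1.08, and Kif22, the other chromokinesin measured, one of −0.41.

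The bipolar spindle motors Kif11 (Eg5) and Kif15 were at 826 and 183 on the DAC array against 453 and 86.9 on the PBS array, with differences of 0.47 and 0.68. The cytokinesis motors differed in sign. Kif20b had 188 in DAC cells and 311 in PBS cells, a difference of −1.13 (2.18-fold lower on the DAC array), Kif20a a difference of −0.50, Kif14 one of −0.99 at low signal, and Kif23, a subunit of centralspindlin, one of 0.11. Of the microtubule-depolymerising kinesins, Kif2a had a difference of 0.43 and Kif2c one of 0.09, and Kif24, which acts at centrioles, one of 0.20.

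Among the 25 other kinesins 13 were measured. Past 2-fold were 2 on the higher side (15.4%) and 0 on the lower, beside 10.0% and 6.84% of all measured genes. The median was 0.31, beside 0.02 for all measured genes. It fell to 0.01 with normexp background correction, where all genes lay at −0.08. Of the 13, 8 lay in the dim bin, with a median of 0.39 beside 0.12 for all genes there. Kif3a, a motor subunit of kinesin-2, which moves cargo into cilia, had 265 in DAC cells and 43.9 in PBS cells, a difference of 2.20 (4.59-fold higher), and 0.70 on its second probe. Kif3b, which pairs with it, had 36.6 in DAC cells and 29.1 in PBS cells, a difference of −0.07. A second Kif3b probe was above background on the DAC array only, with 27.7 there and 4.85 on the PBS array. Kif3c was above background on DAC alone, higher by 1.88-fold at least, and Kif17, which forms its own dimer, had a difference of −0.08.

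Kif21b, a kinesin that steadies microtubule growth in neurons and T cells, had 330 in DAC cells and 55.0 in PBS cells, a difference of 2.19 (4.55-fold higher). Kif7, a regulator of Hedgehog signalling at the cilium tip, had 82.8 in DAC cells and 10.2 in PBS cells, where it was not above background, at least 3.10-fold higher. Kif5c, a heavy chain of conventional kinesin, had 7.57 on the DAC array, not above background, and 37.0 on the PBS array, which puts DAC at least 2.17-fold lower. Its paralogues Kif5a and Kif5b went the other way on their brightest probe, with a bound of at least 1.71-fold higher and a difference of 0.46. Kif1c, a cargo motor, had a difference of 0.22 on its brightest probe, with 2581 in DAC cells and 1689 in PBS cells, and 2.25 on another, with 171 and 27.4. Its remaining probe was above background on the DAC array only, with 86.2 there and 13.0 on the PBS array. The remaining measured kinesins ran from −0.80 (Kif12) to 0.69 (Kif21a). Shown here are the probes behind 5 of the members that stayed past 2-fold wherever measured (build mm9). The Ttk and Ndc80 probes are assigned a genomic span longer than the probe.

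Ttk probe, chr9:83758726-83761669, plus strand: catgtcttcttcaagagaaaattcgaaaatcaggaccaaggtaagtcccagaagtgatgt
Ndc80 probe, chr17:71860793-71861755, minus strand: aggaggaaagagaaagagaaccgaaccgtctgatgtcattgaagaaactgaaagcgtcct
Kif18b probe, chr11:102767246-102767305, minus strand: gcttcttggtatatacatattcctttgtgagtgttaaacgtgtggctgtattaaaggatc
Kif21b probe, chr1:138074490-138074549, plus strand: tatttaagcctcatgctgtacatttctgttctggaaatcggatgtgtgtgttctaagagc
Kif3a probe 1, chr11:53415270-53415329, plus strand: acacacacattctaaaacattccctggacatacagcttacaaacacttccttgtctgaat
Kif3a probe 2, chr11:53397887-53397946, plus strand: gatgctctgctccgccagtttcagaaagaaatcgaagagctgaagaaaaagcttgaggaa

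**Figure D4:**
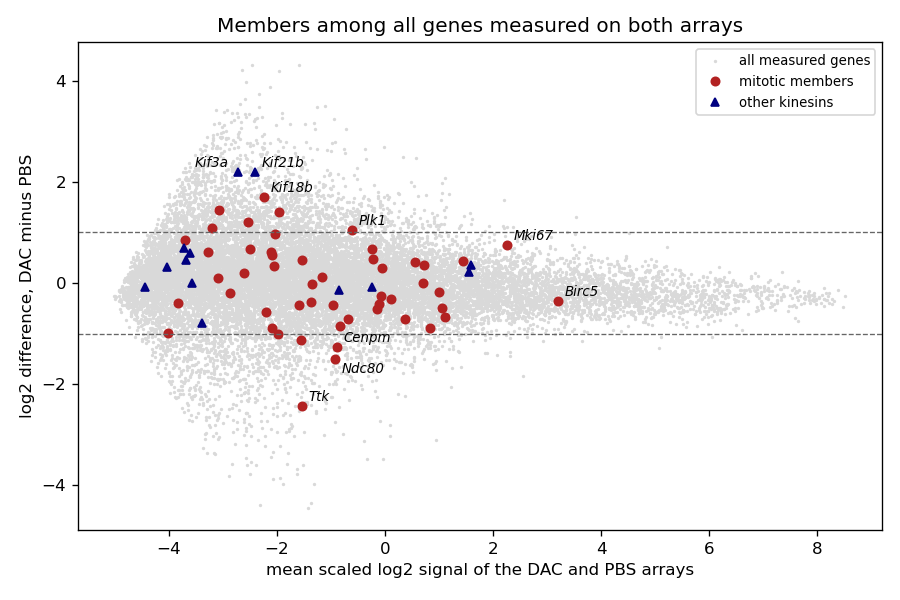
Log2 difference, DAC minus PBS, against the mean scaled log2 signal for all 18211 measured genes (grey), mitotic members (circles) and other kinesins (triangles), with dashed lines at 2-fold. The spread narrows with signal: Mki67 (0.75) and Birc5 (−0.36), at the bright end of the members, lie inside 2-fold, and Ttk, Kif3a and Kif21b lie where the spread is wide.

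Mitosis genes that the naming rule did not take up were read from a list of 103 on the array. Past 2-fold were 15 of 96 measured on the higher side (15.6%) and 5 on the lower (5.21%). The shares of all measured genes were 10.0% and 6.84%. The median of the list was 0.16, beside 0.02 for all measured genes. With only genes at or above the median signal kept, the median of the list was −0.12, beside −0.08 for all genes. The highest were Lin37 (2.33), a subunit of the MuvB complex that binds the CHR, Shcbp1 (2.24), a cytokinesis factor, Mybl2 (1.88), which encodes B-Myb, the activator that joins MuvB, and Sgo2a (1.72), a shugoshin that protects centromeric cohesion. Mybl2 had a second probe of opposite sign. The other MuvB genes on the list, Lin9, Lin52 and Lin54, named here after their values were seen, had differences of 0.69, 0.48 and 0.99, and Foxm1, whose protein binds MuvB in late G2, one of 0.66. Lin37, Mybl2, Lin9, Lin52, Lin54 and Foxm1 lay above 0 under each alternative that measured them. Above 0 as reported were 52 of the 96 measured genes of the list and 51.4% of all measured genes. With normexp background correction Lin37 fell to 1.08 and Lin54 to 0.37, and with no subtraction Lin9 fell to 0.36. Lin37 and Lin54 were dim on the PBS array, at 29.2 and 51.2. The lowest were Cdc23 (−1.54), a subunit of the anaphase-promoting complex, Oip5 (−1.47) and Mis12 (−1.12), which help to build the centromere and kinetochore, and Bora (−1.22), the activator of Aurora A towards Plk1. Mastl, the kinase Greatwall that shields mitotic phosphorylation, was above background on DAC alone, higher by 6.35-fold at least.

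DNA replication genes served as a second set of cycling genes. Past 2-fold were 1 of 43 measured on the higher side (2.33%) and 2 on the lower (4.65%), beside 10.0% and 6.84% of all measured genes. Their median was −0.17, with 14 above 0 and 29 below, beside 51.4% of all measured genes above 0, a median of 0.02 for those genes and one of −0.13 in the brightest bin. The kinase gene Cdc7 (1.58) and Dbf4 (0.99), which encodes its activating subunit, had the highest differences, followed by Cdc45 (0.74) and Pola2 (0.59). The lowest were Ccne1 (−1.43) and Tk1 (−1.07), each with a second measured probe of opposite sign, Orc6 (−0.90) and Rfc5 (−0.84). Above background on DAC alone were Tyms (higher by 3.62-fold at least) and Orc1 (by 3.49-fold at least). Ccne2 was so on PBS alone, with DAC lower by 2.34-fold at least.

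**Figure D5:**
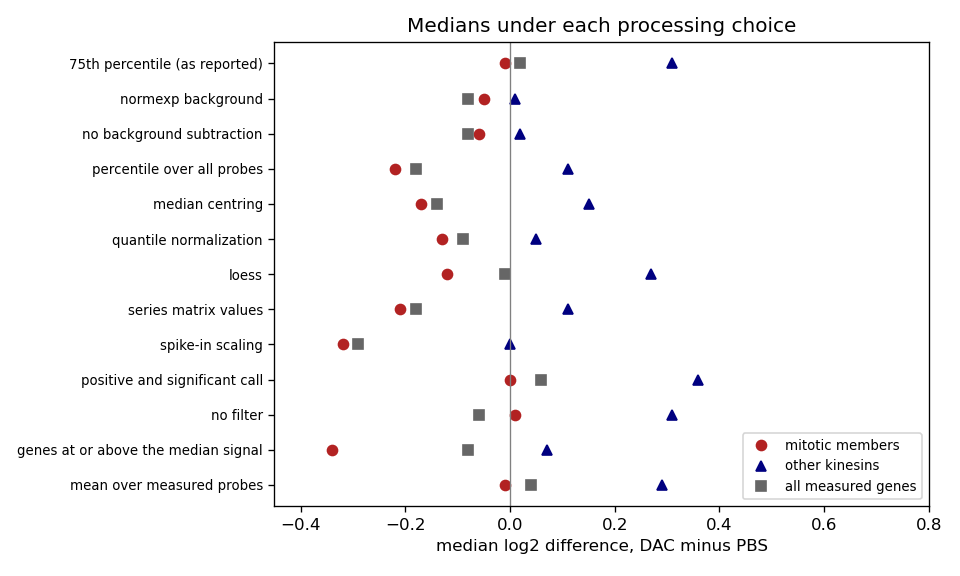
Median log2 difference, DAC minus PBS, of the measured mitotic members, other kinesins and all measured genes under each processing choice (rows). The mitotic members stay within 0.11 of all genes except when only the brighter 50% of genes are kept, where they lie at −0.34 beside −0.08 for all genes.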

How the data were processed

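RNA from 1 DAC and 1 PBS sort was hybridised to 1 slide. Per the labels, it was extracted with an RNeasy Plus Micro kit, amplified and labelled with Cy3. Per the file headers, the deposited intensity values came from Agilent Feature Extraction 10.7.3.1 (mm9); the processed intensity is background-subtracted, detrended and not normalized between arrays. Other deposited spot columns, per the file headers, are scanner calls. The deposited series matrix holds the authors' log2 values, used for differences only.

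Spots were averaged per probe on the log2 scale without outlying spots (55680 of 55681 probes kept); the well-above-background call needed 50% of a probe's spots. Arrays were scaled to the 75th percentile over 25404 probes well above background on both (45.6% of probes). One-array bounds take the higher of the probe's own signal and the lowest signal called on the other array. The number of arrays limits all precision. Members were named by the file, other genes through a GRCm38.p6 table: 26761 probes by accession, 3819 by symbol, 639 by synonym, the rest as in the file. Members and lists were chosen with earlier results of these data known. Named genes were listed members, members past 2-fold or with such a bound, and the 4 highest, 4 lowest and any such bound of each other list, with Kit and Ly6a; for marker lists the text gives sums, extremes and genes seen on 1 array. Steps were tested on simulated data. Python 3.11.15, limma 3.58.1 (normexp offset 50, quantile, loess).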

Additional observations from a re-analysis of the deposited data

How the results depend on the processing

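With 1 array per group, no replicate could be left out and no comparison could be repeated. No paired analysis was possible because each group holds 1 array. Under 12 alternatives all 13 members past 2-fold kept their sign, and 6 (Ttk, Ndc80, Cenpm, Kif18b, Kif21b and Kif3a) stayed past 2-fold wherever they were measured; Cenpo, within 2-fold at −0.84, went to 0.66 as the mean of its probes. Background treatment moved the counts: members higher and lower numbered 3 and 3 with normexp and 3 and 3 with no subtraction (all genes 721 and 752, and 717 and 735), with medians of other kinesins of 0.01 and 0.02. Scaling moved the split, from 61.5% of members past 2-fold on the higher side (59.4% of all genes) to 33.3% (41.8%) with the percentile over all probes, 40.0% (45.8%) with median centring, 42.9% (42.2%) with quantile normalization, 42.9% (49.8%) with loess, 33.3% (41.9%) with series matrix values and 29.4% (32.2%) with spike-in scaling, which rests on 1 of 10 spike-in probes.

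In that order of scaling, members higher numbered 5, 6, 6, 6, 5 and 5 and lower 10, 9, 8, 8, 10 and 12. Medians of all members were −0.15, −0.11, −0.08, −0.05, −0.15 and −0.26, of mitotic members −0.22, −0.17, −0.13, −0.12, −0.21 and −0.32, of other kinesins 0.11, 0.15, 0.05, 0.27, 0.11 and 0.00, of other mitosis genes −0.04, 0.00, 0.07, 0.10, −0.04 and −0.15, and of all genes −0.18, −0.14, −0.09, −0.01, −0.18 and −0.29. Relative to all genes, mitotic members lay between −0.11 and 0.07 except with the brighter 50% of genes. Spike-in scaling gave 1113 higher and 2343 lower genes in all. With the positive and significant call, or no filter at all, 12 members were higher and 6 lower in each case (66.7% on the higher side, beside 62.5% and 63.8% of all genes). The median of members was 0.22 and 0.21, and genes higher and lower numbered 3665 and 2196, and 5364 and 3038. With that call 2 members were seen on 1 array only. With the brighter 50% of genes 1 member was higher and 4 lower (479 and 417 genes), with medians of −0.21 for members, −0.34 for mitotic members, 0.07 for other kinesins and −0.12 for other mitosis genes. The cause of these shifts was not tested.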
